A study of Mus musculus with 62 samples.

Results

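The NMDA receptor subunit genes Grin1, Grin2a, Grin2b, Grin2c, Grin2d and Grin3a were followed across brain regions and ethanol paradigms. They were chosen by gene symbol and make up 6 of the 56415 genes and 36 of the 218795 isoforms counted. The data were 62 poly(A) RNA libraries from 16 male C57BL/6J mice of 8 to 10 weeks. Each mouse gave several of 5 tissues, which were the cortex (CTX), the dorsal and the ventral part of the hippocampus (dHPC and vHPC), and the dorsal and the ventral part of the striatum (DS and VS). All mice were injected intraperitoneally. They received ethanol at 2 g/kg (20% in saline) or saline alone, either for 1 day (acute) or once a day for 10 days (chronic), and the tissue was taken 4 h after the final dose. The 4 groups of each region held 3 mice each, except for 4 mice given acute ethanol in dHPC and 4 given chronic ethanol in DS. The ethanol was thus given by the experimenter and not drunk.

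NMDA receptors are glutamate-gated cation channels of excitatory synapses that pass calcium. A functional receptor needs the GluN1 subunit, encoded by Grin1, which binds the co-agonist glycine or D-serine, together with GluN2 subunits, encoded by Grin2a to Grin2d, which bind glutamate and set the channel's kinetics. In the forebrain GluN2B is prominent early in life and GluN2A rises with maturation, GluN2C and GluN2D are found in more restricted cells, and GluN3A, encoded by Grin3a, lowers the calcium permeability of the receptors that contain it. Ethanol is a known inhibitor of NMDA receptors, and changes in the receptor after repeated ethanol are a classical subject of alcohol research. The comparisons below address which of these genes differed in RNA level between regions and after ethanol.

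The total count per library was 43173748 to 71164766 in CTX and dHPC, which were made with a kit that does not keep strand and read in pairs of 75 bases, and 8149628 to 46564992 in vHPC, DS and VS, made with a kit that does and read in pairs of 150 bases. Tests were therefore made only within each of these batches, and levels are set side by side across them without a test. The chronic saline DS library of replicate 2 lacked any count for genes of 6 chromosomes (7, 8, 9, MT, X and Y) and of chromosome 6 past base 23052915, with a count of 0 for Grin2b and Grin2d. It was left out, so that 61 libraries were used and DS chronic saline is 2 mice. The labelled tissues were checked by marker genes. Levels in CPM are counts scaled to the library total times its TMM normalization factor from edgeR (0.918 to 1.10), as used for each marker sum here. The summed level of 12 striatal projection neuron markers was 3472 to 11170 CPM in DS and VS and 293 to 3411 in the other regions. That of 9 pallial excitatory neuron markers was 1713 to 3739 CPM in CTX, dHPC and vHPC and 48.1 to 1062 in the striatal regions. The highest striatal sum outside the striatum, 3411 CPM, was in 1 chronic saline dHPC library. No gene of either list was at 0 throughout a region.

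Each of the 6 genes passed the filter on low counts in every comparison. Over the 61 libraries the counts ran from 4211 to 36608 for Grin1, from 788 to 30058 for Grin2a, from 2450 to 33069 for Grin2b, from 407 to 3679 for Grin2c, from 55 to 1305 for Grin2d and from 153 to 1826 for Grin3a. Levels are given as RPKM, which is the CPM divided by the exon length in kilobases, so that genes of different length can be compared. The exon union length used for Grin1, 9700 bases, exceeds that of any of its isoforms. With the length of its longest coding isoform, Grin1-204, the Grin1 mean becomes 144 RPKM in CTX and 103 to 126 RPKM in the other regions, without a change in its fold changes.

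Grin1 (ENSMUSG00000026959, GRCm39 chr2:25181193-25209107, minus strand), the subunit that all NMDA receptors share, had the highest level in every region. Its mean was 63.5 ± 3.87 RPKM (SD, n = 12) in CTX, 48.7 ± 4.30 (n = 13) in dHPC and 55.5 ± 8.01 (n = 12) in vHPC, and 46.0 ± 4.40 (n = 12) in DS and 45.5 ± 4.61 (n = 12) in VS. The lowest CTX library, at 58.8 RPKM, lay above the highest dHPC library, at 53.8 RPKM, whereas the ranges of vHPC, DS and VS overlapped. An antisense gene, Grin1os, lies over 1307 of the 11089 exon bases that the GENCODE annotation used for this overlap gives Grin1, more than the 9700 of the deposited table. Its counts were 36.6% to 41.0% of those of Grin1 in the batch without strand and 0% to 0.285% in the stranded batch, so that Grin1 reads of CTX and dHPC could not be told apart from antisense reads.

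**Figure D1:**
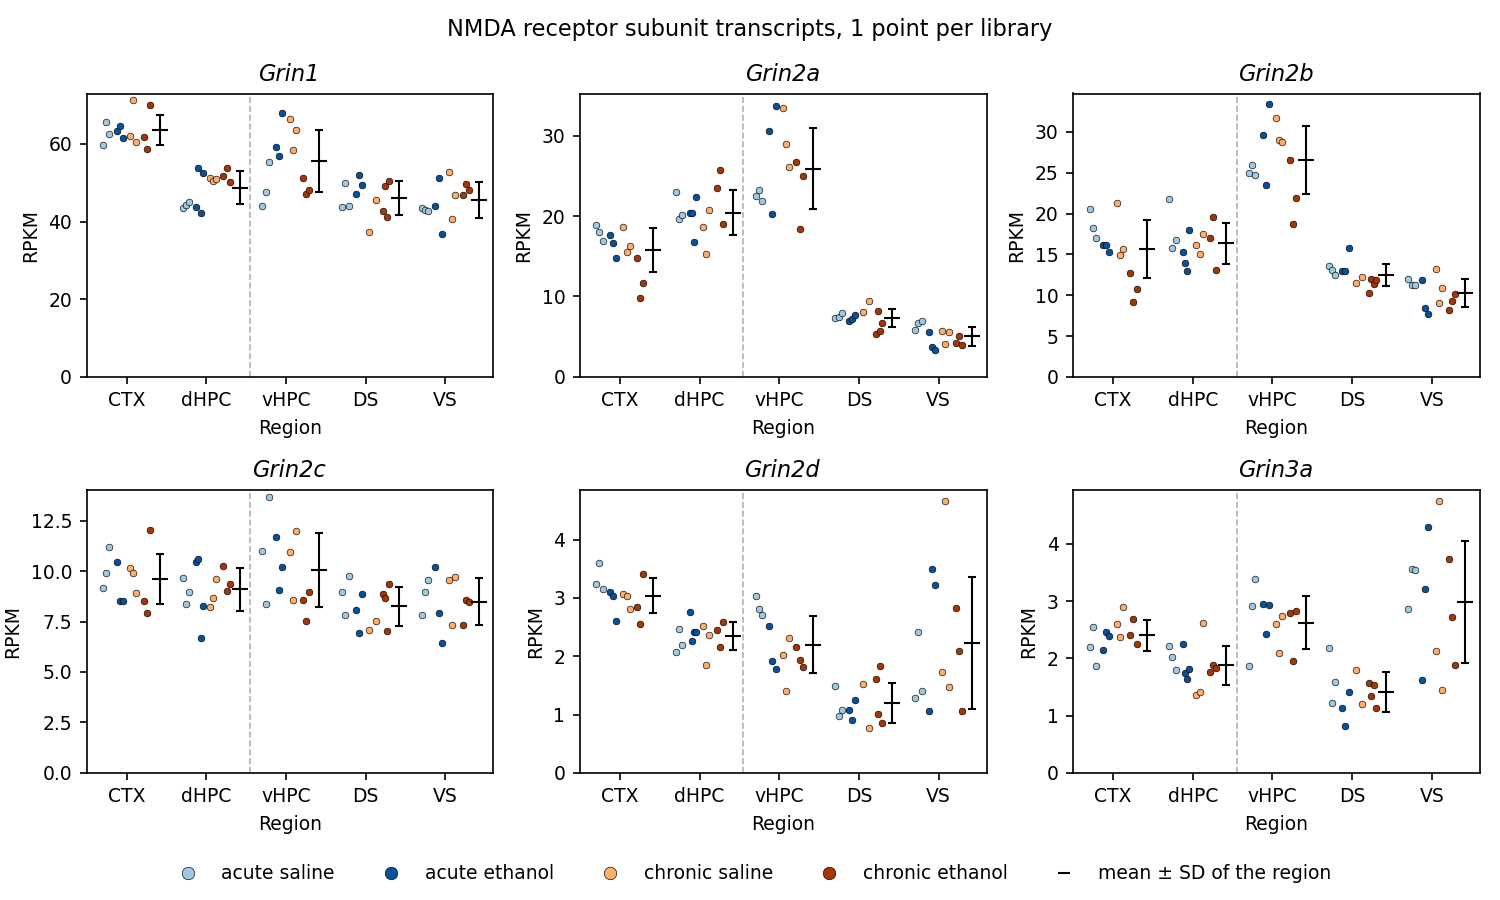
Level of each NMDA receptor subunit gene in RPKM in every library, by region, with each point a library and the dashed line marking the border between the 2 sequencing batches. Grin1 was highest in all 5 regions, Grin2a fell from a mean of 25.9 RPKM in vHPC to 5.07 RPKM in VS, and Grin2d and Grin3a were lowest in DS.

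Among the GluN2 genes, Grin2a (ENSMUSG00000059003, chr16:9385762-9812787, minus strand), the subunit of fast mature receptors, varied most between regions. Grin2a averaged 15.8 ± 2.75 RPKM in CTX, 20.4 ± 2.79 in dHPC and 25.9 ± 5.00 in vHPC, and 7.35 ± 1.09 in DS and 5.07 ± 1.18 in VS. The lowest vHPC library (18.4 RPKM) held more Grin2a than the highest DS library (9.43 RPKM). Grin2b (ENSMUSG00000030209, chr6:135690231-136150509, minus strand), the subunit of slower receptors, averaged 15.6 ± 3.56 RPKM in CTX, 16.4 ± 2.51 in dHPC and 26.6 ± 4.19 in vHPC, and 12.5 ± 1.37 in DS and 10.3 ± 1.73 in VS. The vHPC libraries (18.7 to 33.4 RPKM) thus did not overlap those of DS (10.3 to 15.7) or VS (7.70 to 13.1), while CTX and dHPC did not differ beyond their spread.

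Grin2c (ENSMUSG00000020734, chr11:115139995-115158069, minus strand), which is known for the cerebellum and for astrocytes, was the most even member, with means from 8.25 ± 0.96 RPKM in DS to 10.0 ± 1.84 RPKM in vHPC and overlapping ranges in all 5 regions. Grin2d (ENSMUSG00000002771, chr7:45481307-45527802, minus strand), known for interneurons and the diencephalon, averaged 3.04 ± 0.30 RPKM in CTX, 2.35 ± 0.24 in dHPC and 2.20 ± 0.48 in vHPC, and 1.20 ± 0.34 in DS and 2.23 ± 1.13 in VS. Grin3a (ENSMUSG00000039579, chr4:49661611-49845549, minus strand) averaged 2.40 ± 0.27 RPKM in CTX, 1.88 ± 0.34 in dHPC and 2.62 ± 0.46 in vHPC, and 1.41 ± 0.36 in DS and 2.98 ± 1.06 in VS. Both genes were most uneven within VS. Grin2d was at 3.22, 3.49 and 4.66 RPKM in 2 acute ethanol libraries and 1 chronic saline library of VS, and at 1.06 to 2.83 RPKM in the other 9. The same 3 libraries held 3.22 to 4.75 RPKM of Grin3a, and the other 9 held 1.44 to 3.74 RPKM, so that the levels of Grin3a overlapped. Their striatal marker sums were 3472 to 5703 CPM within a VS range of 3472 to 7579 CPM, and the part of that in the levels was not tested.

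Regions were compared with edgeR's quasi-likelihood test on the counts of all genes with a term for the treatment group, and a gene was called where its false discovery rate (FDR, Benjamini-Hochberg over all genes tested) was below 0.1. In bulk tissue, fewer cells of a type and less RNA per cell cannot be told apart. Between dHPC and CTX, 4 of the 6 genes were called, where 62.8% of all genes were. Grin1 was lower in dHPC (log2 fold change -0.37, SE 0.04, FDR 1.57e-08), as were Grin2d (-0.36, SE 0.06, FDR 7.72e-06) and Grin3a (-0.34, SE 0.08, FDR 0.00106), and Grin2a was higher (0.39, SE 0.09, FDR 0.000279). Grin2b and Grin2c were not called, with 95% intervals of -0.08 to 0.29 and of -0.21 to 0.08 on the log2 scale.

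All 6 genes were lower in DS than in vHPC, where 58% of all genes were called. The largest of these differences was that of Grin2a (-1.80, SE 0.10, FDR 4.75e-17), followed by Grin2b (-1.07, SE 0.08, FDR 1.21e-14), Grin3a (-0.91, SE 0.16, FDR 1.11e-05) and Grin2d (-0.87, SE 0.21, FDR 0.000579). Those of Grin2c (-0.28, SE 0.08, FDR 0.00536) and Grin1 (-0.26, SE 0.06, FDR 0.00082) were several times smaller. In VS against vHPC, 4 of the 6 genes were called, against 53.7% of all genes. Grin2a was lower by 2.36 on the log2 scale (log2 fold change -2.36, SE 0.11, FDR 1.5e-19) and Grin2b by 1.37 (-1.37, SE 0.08, FDR 2.36e-17), while Grin1 (-0.28) and Grin2c (-0.24) again differed less. Grin3a (95% interval -0.13 to 0.50) and Grin2d (-0.39 to 0.43) were not called there.

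The 2 striatal regions differed in 4 of the 6 genes, against 34.6% of all genes. Grin3a (1.09, SE 0.16, FDR 4.39e-06) and Grin2d (0.89, SE 0.21, FDR 0.0014) were higher in VS than in DS. Grin2a (-0.56, SE 0.10, FDR 7.93e-05) and Grin2b (-0.30, SE 0.08, FDR 0.00259) were lower. Grin1 (95% interval -0.15 to 0.12) and Grin2c (-0.13 to 0.21) were not called. With saline mice alone the FDR of Grin2b was 0.325 and that of Grin2d 0.136, so that both calls were lost, and the Grin2b call was also lost with the incomplete DS library included (FDR 0.815). The other region calls held in all alternatives and without each library in turn.

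The subunit RNAs were then set against each other by ratios of counts per kilobase within a library, in which the sequencing depth cancels. The libraries hold RNA only, so these ratios do not give the subunit make-up of receptors. Ratios were compared between regions of the same mouse, as taken from group and replicate number, with exact two-sided sign-flip permutation tests, adjusted over the 24 tests made. The size of a ratio depends on the exon union lengths used, which were 9700 bases for Grin1, 17933 for Grin2a and 24842 for Grin2b. The isoforms of highest share have 4276, 14634 and 24060 bases. Differences in a log2 ratio between libraries do not depend on these lengths. The Grin2b to Grin2a ratio was 0.984 ± 0.0782 in CTX, 0.805 ± 0.0903 in dHPC and 1.03 ± 0.0863 in vHPC. It was higher in DS (1.72 ± 0.234) and VS (2.07 ± 0.286). No vHPC library exceeded a ratio of 1.16 and no DS library was below 1.30. From vHPC to DS the ratio rose by 0.70 on the log2 scale in 11 of 11 mice (adjusted p = 0.00781, exact permutation test), from vHPC to VS by 0.99 in 9 of 9 mice (adjusted p = 0.00852, exact permutation test) and from DS to VS by 0.27 in 9 of 10 mice (adjusted p = 0.0146, exact permutation test). From CTX to dHPC it fell by 0.26 in 8 of 9 mice (adjusted p = 0.0125, exact permutation test).

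Relative to Grin1, Grin2a stood at 0.250 in CTX, 0.421 in dHPC and 0.467 in vHPC, and 0.161 in DS and 0.112 in VS. Grin2b stood at 0.248, 0.338, 0.480, 0.273 and 0.227 of Grin1 in the same order of regions. Both ratios were higher in dHPC than in CTX in 9 of 9 mice, by 0.76 (Grin2a) and 0.50 (Grin2b) on the log2 scale, and lower in DS than in vHPC in 11 of 11 mice, with log2 differences of -1.505 and -0.80. From DS to VS, Grin2a fell against Grin1 by a further 0.59 in 9 of 10 mice and Grin2b by 0.31 in 10 of 10. Grin2c to Grin1 rose from CTX (0.151) to dHPC (0.187) by 0.35 on the log2 scale in 9 of 9 mice and averaged between 0.180 and 0.187 in vHPC, DS and VS, without a call. Grin2d and Grin3a fell against Grin1 from vHPC to DS by 0.72 and 0.70, each in 9 of 11 mice, and rose from DS to VS by 0.78 in 8 of 10 mice and 0.97 in 9 of 10. In all, 17 of the 24 ratio comparisons passed an adjusted p below 0.1. The 7 that did not were the 3 of Grin2c among vHPC, DS and VS, and those of Grin2d and Grin3a between CTX and dHPC and between vHPC and VS. With saline mice alone (4 or 5 a pair of regions) 0 of the 24 passed, with adjusted p of 0.214 or more, and the exact permutation test then allows no unadjusted p below 0.125 or 0.0625.

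**Figure D2:**
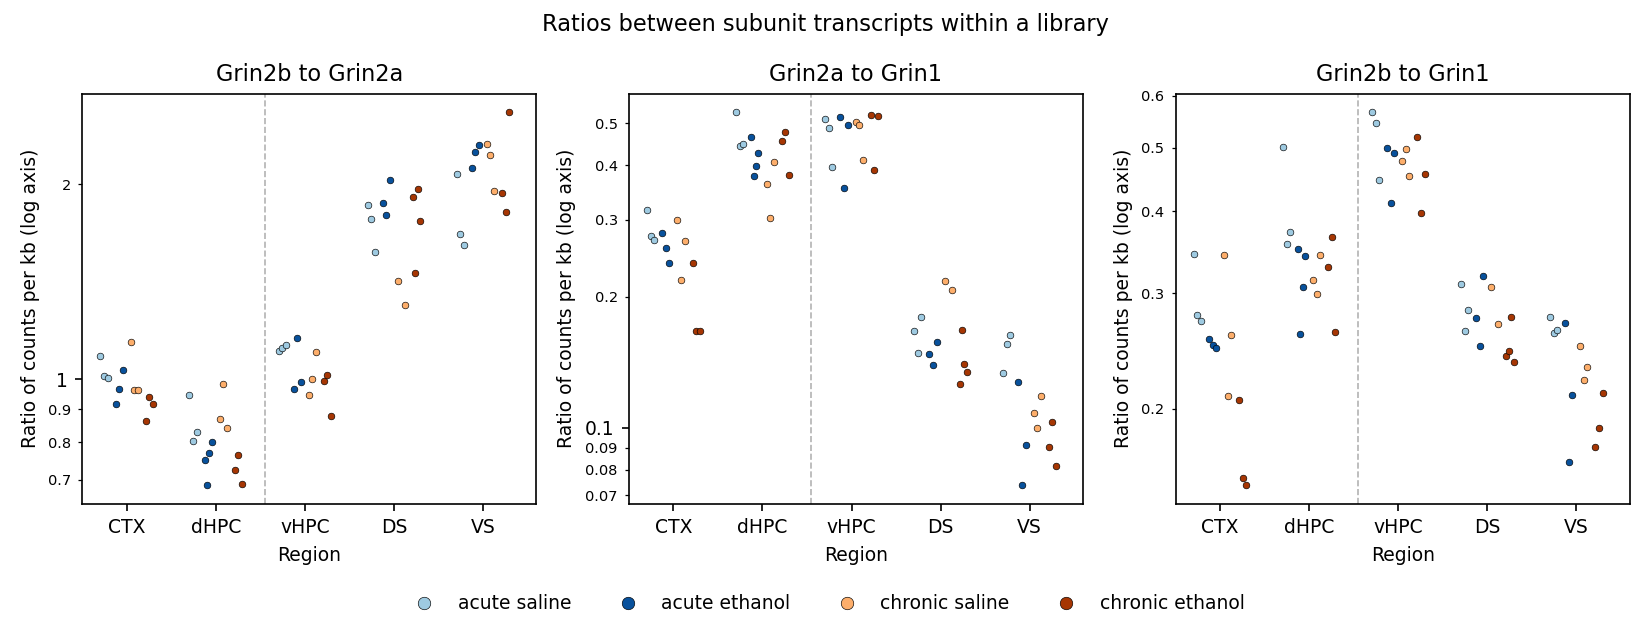
Ratios of subunit genes in counts per kilobase (log axis) in every library by region, with saline and ethanol libraries marked apart. The Grin2b to Grin2a ratio lay between 0.687 and 1.16 in CTX, dHPC and vHPC and between 1.30 and 2.58 in DS and VS.

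Grin1 is spliced at its 3′ end through the cassettes C1 and C2, which encode parts of the intracellular tail of GluN1 that bear on receptor traffic. Since each isoform was counted over all exons it contains, the 8 coding Grin1 isoforms share nearly all of their reads and differ mainly by these cassettes. The sequences are shown because each cassette's count is of reads that touch it and no exon of the isoform that lacks it. They are read from GRCm39 on the minus strand, 5′ to 3′, with the cassette in capitals and 15 intron bases on each side (before it, for C2) in lower case. C1 is an exon of 111 bases at chr2:25184450-25184560 (shown with its flanks, chr2:25184435-25184575). C2 is the first part of the last exon, of which the first 60 coding bases are shown (chr2:25182437-25182511), and the segment counted was chr2:25182141-25182496.
C1: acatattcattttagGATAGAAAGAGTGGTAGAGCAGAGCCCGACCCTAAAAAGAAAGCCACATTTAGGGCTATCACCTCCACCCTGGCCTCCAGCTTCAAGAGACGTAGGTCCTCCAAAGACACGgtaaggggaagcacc
C2: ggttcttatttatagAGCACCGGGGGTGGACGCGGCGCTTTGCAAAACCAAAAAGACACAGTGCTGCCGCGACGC

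Reads that touch C1 but no exon of Grin1-203 were obtained as the Grin1-204 count minus the Grin1-203 count. Those that touch the C2 segment but no exon of Grin1-208 were obtained as Grin1-204 minus Grin1-208. Reads that run from a cassette into an adjoining intron are included, and the part of unspliced RNA was not tested. Per 1000 Grin1 reads, C1 held 7.77 ± 0.666 in CTX, 7.02 ± 0.727 in dHPC and 3.93 ± 1.48 in vHPC, and 6.27 ± 2.13 in DS and 7.16 ± 1.32 in VS. These shares rest on 114 to 303 reads a library in CTX and dHPC, and on 11 to 154 reads in the other regions. C1 reads were higher in DS than in vHPC by 0.69 on the log2 scale in 9 of 11 mice (adjusted p = 0.0182 over 8 tests, exact sign-flip permutation test) and higher in VS than in vHPC by 0.97 in 9 of 9 mice (adjusted p = 0.0182, exact permutation test). The C2 segment held 30.8 ± 3.03 reads per 1000 in CTX, 28.3 ± 2.44 in dHPC and 40.1 ± 4.11 in vHPC, and 48.0 ± 5.84 in DS and 47.4 ± 6.95 in VS. C2 reads were also higher in the striatum than in vHPC, by 0.27 in 9 of 11 mice for DS (adjusted p = 0.0182, exact permutation test) and by 0.24 in 8 of 9 for VS (adjusted p = 0.0469, exact permutation test). From CTX to dHPC the C2 share fell by 0.14 in 7 of 9 mice (adjusted p = 0.0688, exact permutation test), a call lost without any of 5 mice (acute saline 2 and 4, acute ethanol 4, chronic saline 5 and chronic ethanol 6), with adjusted p then up to 0.138. In the batch read to 150 bases, only reads trimmed to 111 bases or fewer fit wholly in C1. Longer reads counted there run into an intron. How far trimming or unspliced RNA varied between regions was not tested.

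The share of a gene's reads held by each isoform was compared in the same way over 35 isoforms (140 tests). Of these, 30 passed an adjusted p below 0.1, with 12 between CTX and dHPC, 10 between vHPC and DS, 2 between vHPC and VS and 6 between DS and VS. The isoform with the highest mean share was Grin1-204 (99.1%) for Grin1, Grin2a-206 (98.0%) for Grin2a, Grin2b-201 (99.98%) for Grin2b, Grin2c-202 (99.5%) for Grin2c, Grin2d-201 (94.7%) for Grin2d and Grin3a-202 (98.9%) for Grin3a. Those with the lowest were Grin1-212 (10.4%), Grin2a-205 (3.47%), Grin2b-207 (0.764%), Grin2c-201 (93.6%), Grin2d-202 (6.56%) and Grin3a-204 (3.45%). Shares of one gene overlap and do not add to 100%, because a read over a shared exon counted for each isoform.

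The clearest share differences were in Grin2a and Grin2b between vHPC and DS. Grin2b-202, a coding isoform of 7484 bases against the 24060 of Grin2b-201, held 25.1% ± 1.76 of the Grin2b reads in vHPC, 19.7% ± 1.40 in DS and 22.1% ± 1.79 in VS. Its share was lower in DS than in vHPC by 0.33 on the log2 scale in 11 of 11 mice (adjusted p = 0.0322, exact permutation test). Grin2a-201 and Grin2a-202, the shorter coding isoforms of Grin2a, held 31.9% and 33.7% of its reads in vHPC and 26.6% and 27.9% in DS, lower by 0.25 and 0.26 in 10 of 11 mice each (adjusted p = 0.0322 for both, exact permutation test). The retained-intron isoforms Grin2a-203 and Grin2a-204 fell by 0.50 and 0.44 in 10 of 11 mice (adjusted p = 0.0322 for both, exact permutation test). The coding isoforms Grin2a-206 and Grin2b-201 hold the long 3′ exons, so that a higher share of the shorter isoforms is a higher share of reads in the body of the gene. The called Grin1 shares differed by at most 0.09 on the log2 scale.

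The effect of ethanol was tested against saline separately for the regions and paradigms, with edgeR on all genes and DESeq2 beside it. Over the 10 comparisons, 1 of the 60 tests of the members was called, Grin2b after acute ethanol in CTX. Of all genes, edgeR called 0% to 5.15% per comparison. At an unadjusted p below 0.05 there were 15 tests, 13 of them lower with ethanol, against 7.32% to 15.5% of all genes per comparison. DESeq2, at an FDR below 0.1, gave 5 calls, all of them lower, against 0.835% to 8.14% per comparison of the genes to which it gave an FDR. Every DESeq2 share in this text, of genes or of isoforms, is of those with a DESeq2 FDR. They were fewer than edgeR tested, for example 12963 against 19916 genes in acute vHPC, so the shares of the 2 tools have different bases. The 60 tests share mice and genes that vary together (Grin2a and Grin2b, Pearson r = 0.953), so they are not separate evidence. The median over the 6 genes ran from -0.34 in chronic vHPC to 0.11 in acute vHPC, while the median of all genes tested was within 0.01 of 0 in each comparison.

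**Figure D3:**
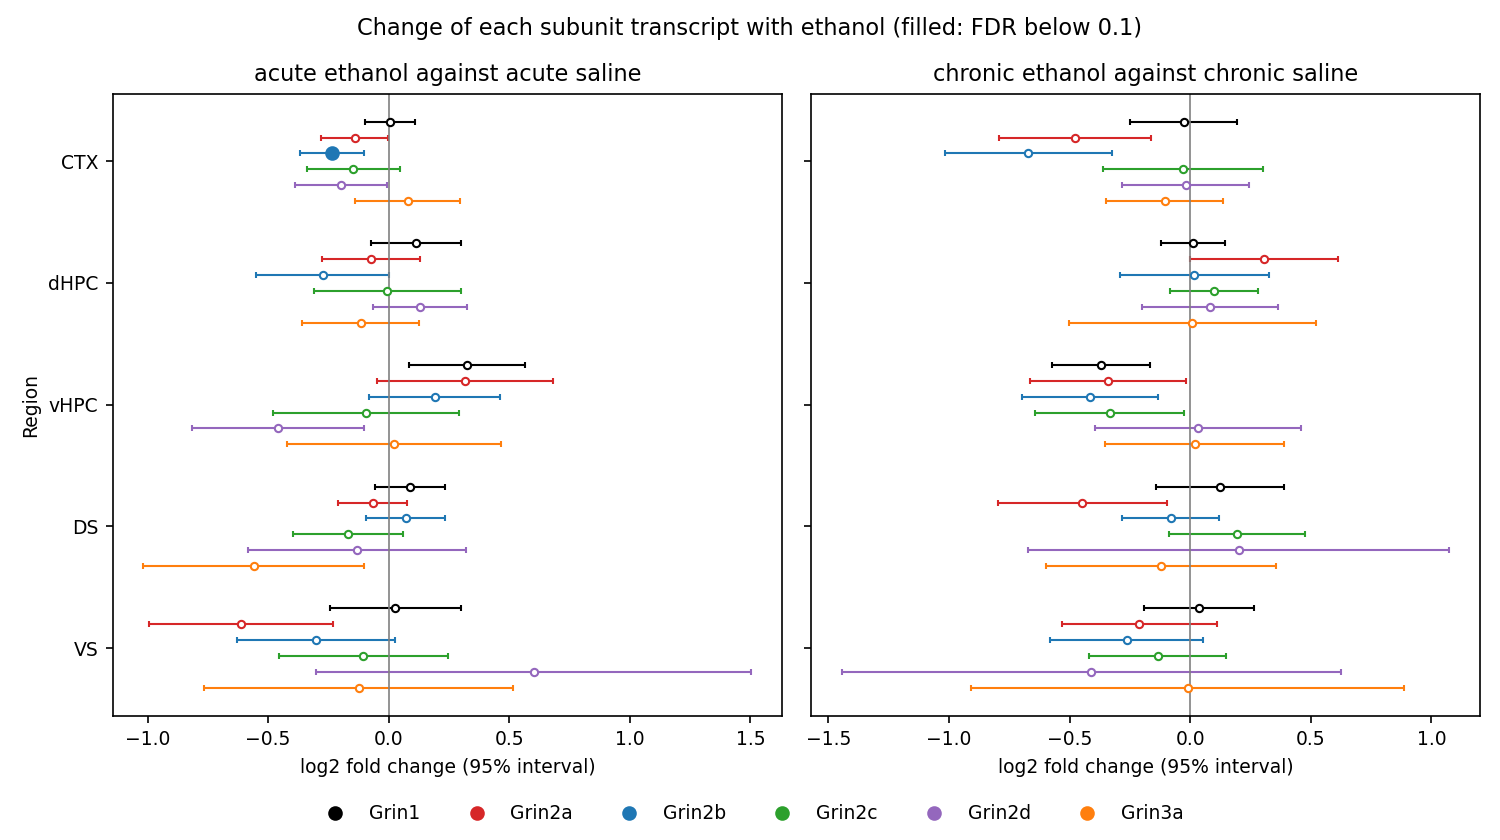
Log2 fold change of ethanol against saline for the 6 subunit genes in each region after acute and chronic exposure, with 95% intervals from edgeR. Grin2b in CTX lay below 0 in both paradigms (-0.24 and -0.67), and Grin1 in vHPC lay above 0 after acute and below 0 after chronic ethanol (0.32 and -0.37).

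In CTX, Grin2b was lower with ethanol in both paradigms. It was at 20.5, 18.3 and 17.0 RPKM in the acute saline libraries and at 16.2, 16.1 and 15.2 RPKM in the acute ethanol libraries. The groups did not overlap, as held for 17.6% of all genes in that comparison. The log2 fold change was -0.24 (SE 0.06, edgeR FDR 0.0991, DESeq2 FDR 0.0254). The call was 1 of 6 members, where edgeR called 1.99% of all genes, and lay just inside the threshold. It was kept in 5 of 6 alternative analyses, over which the FDR ran from 0.000164 to 0.752, and in only 1 of the 6 fits that leave out a library (FDR 0.058 without acute saline replicate 6, and up to 0.296 without acute ethanol replicate 5). Grin2a (-0.14) and Grin2d (-0.20) had unadjusted p below 0.05 as well, 3 of 6 members against 12.5% of all genes. DESeq2 called Grin2b alone, against 5.21% of the genes with a DESeq2 FDR. The fold changes of the others were -0.15 for Grin2c, 0.0053 for Grin1 and 0.079 for Grin3a. Marker sums of other cells also differed without overlap between the acute CTX groups. The 7 myelin markers summed to 1910 to 2171 CPM with saline and 2244 to 2976 CPM with ethanol, the 12 striatal markers to 480 to 559 against 443 to 466 CPM, the 6 dentate granule markers to 64.7 to 72.1 against 58.1 to 63.6 CPM and the 5 microglia markers to 178 to 188 against 168 to 172 CPM. Their part in the Grin2b value was not tested.

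After chronic ethanol, Grin2b was at 12.7, 9.21 and 10.7 RPKM in CTX, against 21.3, 14.9 and 15.6 RPKM with chronic saline. Every ethanol library was below every saline library, as in one direction or the other for 18.3% of genes. The fold change, -0.67 (SE 0.15), was larger than the acute one and was not called by edgeR (FDR 0.443), which called 0% of all genes there. DESeq2 called it (FDR 0.0271), as it did 0.835% of the genes with a DESeq2 FDR. Grin2a was at 14.8, 9.82 and 11.7 RPKM with chronic ethanol and at 18.6, 15.5 and 16.2 RPKM with chronic saline (log2 fold change -0.48, SE 0.14, FDR 0.443, DESeq2 FDR 0.138). These 2 were the members with an unadjusted p below 0.05, against 10.4% of all genes, and the other fold changes ran from -0.11 for Grin3a through -0.029 for Grin2c and -0.027 for Grin1 to -0.019 for Grin2d. The 8 thalamic markers summed to 68.8 to 72.2 CPM with chronic saline and 56.7 to 66.7 CPM with chronic ethanol, the only one of the 10 marker lists without overlap there, and its part was not tested. Both are long genes, and long genes as a class were lower in the same comparison. The median of 434 genes with at least 15000 exon bases and 1 CPM was -0.24, with 91.7% of them below 0, against a median of 0.01 for all genes of that level. In acute CTX the median of long genes was 0.00. The part of gene length in the chronic values was not tested.

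Over both paradigms together, Grin2b was lower in CTX by 0.46 on the log2 scale (log2 fold change -0.46, SE 0.10, edgeR FDR 0.110, DESeq2 FDR 0.00614) and Grin2a by 0.31 (-0.31, SE 0.09, FDR 0.197, DESeq2 FDR 0.065). edgeR called 0 members and 0.369% of all genes, and 2 members had an unadjusted p below 0.05 against 12.7% of all genes. DESeq2 called both, against 4.77% of the genes with a DESeq2 FDR. Leaving out chronic ethanol replicate 6 gave Grin2b an FDR of 0.0693. The Grin2b to Grin1 ratio in CTX was lower with ethanol by 0.44 on the log2 scale (6 against 6 libraries, adjusted p = 0.0667 over 30 tests, exact two-sided permutation within paradigm), with values of 0.247 to 0.256 and 0.153 to 0.206 after acute and chronic ethanol and of 0.272 to 0.344 and 0.209 to 0.343 after saline. This ratio call held without each library in turn. The ethanol effect on Grin2b was more negative after chronic than after acute exposure by 0.45 (SE 0.18, unadjusted p = 0.0270 from edgeR, FDR 0.600). It was the only member at an unadjusted p below 0.05 for that difference, against 8.19% of all genes, edgeR called 0% of genes and DESeq2 0.084%. The median of the long genes was -0.12 over both paradigms, with 84.6% of them below 0. For the difference between paradigms it was -0.24, with 92.6% below 0. The part of gene length in these values, and in the ratio of Grin2b (24842 exon bases) to Grin1 (9700), was not tested.

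In dHPC no member was called after acute ethanol, where edgeR called 0.042% of genes, and none had an unadjusted p below 0.05, against 7.88% of genes, or a DESeq2 call, against 1.6%. The fold changes were -0.27 for Grin2b, -0.12 for Grin3a, -0.074 for Grin2a, -0.0051 for Grin2c, 0.11 for Grin1 and 0.13 for Grin2d. After chronic ethanol edgeR called 0% of genes, Grin2a alone had an unadjusted p below 0.05 (8.23% of genes) and DESeq2 called no member (1.25% of genes). Grin2a was at 23.5, 25.7 and 19.0 RPKM with chronic ethanol and 18.6, 15.3 and 20.8 RPKM with chronic saline, in overlapping groups (log2 fold change 0.31, SE 0.13, FDR 0.606). The other 5 fold changes were smaller, at 0.10 for Grin2c, 0.082 for Grin2d, 0.018 for Grin2b, 0.012 for Grin1 and 0.0096 for Grin3a. For the difference between paradigms edgeR called 0% of genes, Grin2a (0.38) was the member with an unadjusted p below 0.05 (4.48% of genes) and DESeq2 called no member (0.00745% of genes). Over both paradigms edgeR called 0.451% of genes, 11.8% had an unadjusted p below 0.05 and DESeq2 called 3.87%, with no member in any of these.

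The Grin2b to Grin2a ratio in dHPC was lower with ethanol in both paradigms. The values were 0.947, 0.804 and 0.8286 after acute saline and 0.752, 0.687, 0.770 and 0.8003 after acute ethanol. After chronic exposure they were 0.868, 0.984 and 0.842 with saline and 0.724, 0.763 and 0.689 with ethanol. All 7 ethanol libraries were thus below all 6 saline libraries. The difference was -0.25 on the log2 scale (adjusted p = 0.0667 over 30 tests, exact permutation within paradigm) and held without each library in turn. The chronic saline library with 3411 CPM of striatal markers was one of those left out in turn. Marker sums of dHPC differed between saline and ethanol as well. The 9 pallial markers summed to 1802 to 2189 CPM after acute saline and 2205 to 2726 CPM after acute ethanol. After chronic saline and chronic ethanol the 6 dentate granule markers summed to 212 to 374 and 383 to 531 CPM, and the 7 myelin markers to 6285 to 7227 and 5062 to 5770 CPM. None of these groups overlapped, and their part in the ratio was not tested. Long genes (at least 15000 exon bases), a class that holds both Grin2a and Grin2b, had a median log2 fold change of -0.036 in acute dHPC, with 67.9% below 0. In chronic dHPC it was 0.028, with 38.2% below 0. The part of gene length in the ratio was not tested.

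In vHPC, the Grin1 values with ethanol lay on opposite sides of saline in the 2 paradigms, a difference called by DESeq2 and not by edgeR. It was at 44.0, 47.7 and 55.4 RPKM after acute saline and at 59.3, 57.0 and 68.1 RPKM after acute ethanol, with every ethanol library above every saline library, as in one direction or the other for 17.7% of genes. The log2 fold change was 0.32 (SE 0.11, edgeR FDR 0.318, DESeq2 FDR 0.122). After chronic saline it was at 66.5, 58.5 and 63.5 RPKM and after chronic ethanol at 51.2, 47.0 and 48.0 RPKM, again without overlap (14.8% of genes), with a log2 fold change of -0.37 (SE 0.09, FDR 0.297, DESeq2 FDR 0.0335). The chronic ethanol effect was below the acute one by 0.69 (log2 difference -0.69, SE 0.14, unadjusted p = 0.000209 from edgeR, FDR 0.289, DESeq2 FDR 0.00471). Without acute saline replicate 6 its edgeR FDR was 0.062. The 2 saline groups differed as well, since the chronic saline libraries were all above the acute ones.

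Of the GluN2 genes of vHPC, Grin2a, Grin2b and Grin2c had negative fold changes after chronic ethanol, none of them called. Grin2b was at 31.7, 29.0 and 28.8 RPKM after chronic saline and 26.6, 18.7 and 21.9 RPKM after chronic ethanol (-0.42, SE 0.13, FDR 0.406, and 0.0606 without chronic ethanol replicate 4). Grin2a was at 26.2 to 33.4 RPKM after chronic saline and at 18.4 to 26.7 RPKM after chronic ethanol, in overlapping groups (-0.34, SE 0.15, FDR 0.510), and Grin2c had a log2 fold change of -0.33 (SE 0.14, FDR 0.496). After acute ethanol Grin2d was at 2.51, 1.93 and 1.77 RPKM, below the 3.03, 2.80 and 2.701 RPKM of acute saline (-0.46, SE 0.16, FDR 0.328). The other acute fold changes were 0.32 for Grin2a, 0.19 for Grin2b, 0.023 for Grin3a and -0.095 for Grin2c, and the other chronic ones were 0.032 for Grin2d and 0.019 for Grin3a. In acute vHPC edgeR called 0% of genes, 2 members had an unadjusted p below 0.05 against 11.9% of genes, and DESeq2 called no member against 4.46% of genes. In chronic vHPC edgeR called no member and 0.0555% of genes, 4 members had an unadjusted p below 0.05 against 9.51% of genes, and DESeq2 called Grin1, against 1.17% of genes. For the difference between paradigms edgeR called 0% of genes, 3 members (Grin1, Grin2a at -0.66 and Grin2b at -0.61) had an unadjusted p below 0.05 against 11.5% of genes, and DESeq2 called Grin1 and Grin2b (FDR 0.0797), against 4.62% of genes. Over both paradigms edgeR called 0%, 8.44% had an unadjusted p below 0.05 and DESeq2 called 0.993% of genes, with no member among them.

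**Figure D4:**
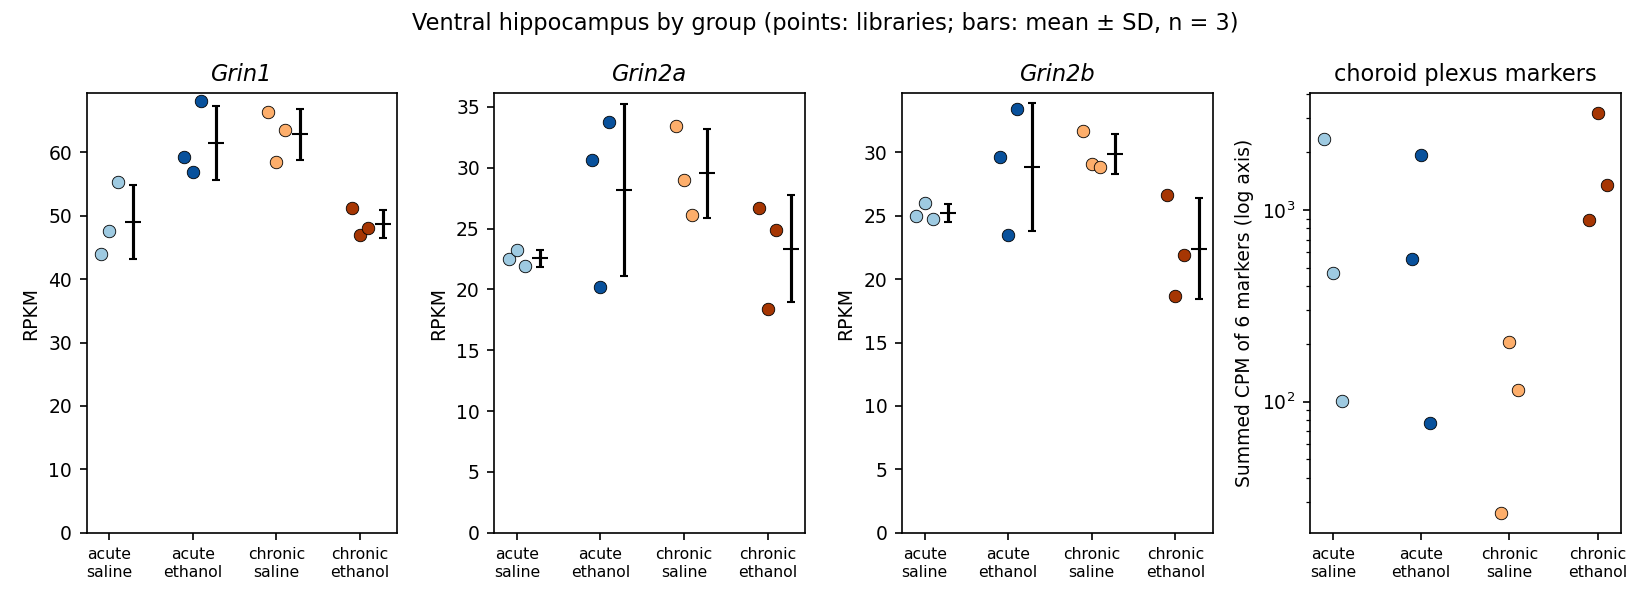
Level in RPKM of Grin1, Grin2a and Grin2b, and summed CPM of the choroid plexus markers (log axis), in each vHPC library of the 4 groups. The chronic ethanol libraries of Grin1 (47.0 to 51.2 RPKM) lay below the chronic saline libraries (58.5 to 66.5 RPKM), and the acute ethanol libraries (57.0 to 68.1 RPKM) above the acute saline ones (44.0 to 55.4 RPKM).

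Markers of other cells varied between the vHPC libraries. The summed level of 6 choroid plexus markers was 26.3 to 204 CPM in chronic saline and 885 to 3180 CPM in chronic ethanol, without overlap, and 100 to 2346 against 77.5 to 1938 CPM in the acute groups. Without overlap between acute saline and acute ethanol were the sums of 6 dentate granule markers (87.6 to 249 against 316 to 505 CPM), 7 GABAergic interneuron markers (629 to 735 against 569 to 621 CPM) and 5 microglia markers (148 to 176 against 181 to 197 CPM). The 9 pallial markers summed to 3133 to 3739 CPM in chronic saline and 2163 to 2908 CPM in chronic ethanol. The 7 myelin markers ranged from 2402 to 9108 CPM over the region. The part of these differences in the subunit values was not tested.

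In DS no member was called by edgeR in either paradigm. After acute ethanol edgeR called 5.15% of all genes, and Grin3a alone had an unadjusted p below 0.05, against 15.5% of genes. Grin3a was at 2.17, 1.22 and 1.59 RPKM with acute saline and 1.13, 0.823 and 1.41 RPKM with acute ethanol, in overlapping groups (log2 fold change -0.56, SE 0.21, FDR 0.211). DESeq2 called it (FDR 0.0966) together with 8.14% of genes, and without acute saline replicate 4 its edgeR FDR was 0.0901. The other acute fold changes ran from -0.17 for Grin2c, -0.13 for Grin2d and -0.067 for Grin2a to 0.070 for Grin2b and 0.088 for Grin1. After chronic ethanol edgeR called 0% of genes, Grin2a had an unadjusted p below 0.05 (7.53% of genes) and DESeq2 called no member (0.878% of genes). Grin2a was at 8.09 and 9.43 RPKM with chronic saline and 5.38, 8.25, 5.76 and 6.76 RPKM with chronic ethanol (-0.45, SE 0.15, FDR 0.568). The other chronic fold changes ran from -0.12 for Grin3a and -0.081 for Grin2b to 0.12 for Grin1 and 0.20 for both Grin2c and Grin2d. Over both paradigms edgeR called no member and 5.62% of genes, Grin2a (-0.24, SE 0.10, FDR 0.216) had an unadjusted p below 0.05 (15.4% of genes) and DESeq2 called no member (9.88% of genes). For the difference between paradigms edgeR called 0% of genes, Grin2c (0.37, FDR 0.973) had an unadjusted p below 0.05 (4.16% of genes) and DESeq2 called no member (0.019% of genes).

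In VS the direction of Grin2a was the same. It was at 5.79, 6.69 and 6.97 RPKM with acute saline and 5.63, 3.77 and 3.34 RPKM with acute ethanol, without overlap, as held for 12.3% of genes. The log2 fold change was -0.61 (SE 0.17, edgeR FDR 0.428, DESeq2 FDR 0.0831), and without acute ethanol replicate 2 the edgeR FDR was 0.0167. In acute VS edgeR called no member and 0.0399% of genes, Grin2a alone had an unadjusted p below 0.05 (7.32% of genes), and DESeq2 called it and 0.943% of genes. The other acute fold changes were 0.60 for Grin2d, 0.028 for Grin1, -0.10 for Grin2c, -0.12 for Grin3a and -0.30 for Grin2b. In chronic VS edgeR called 0% of genes, 9.95% had an unadjusted p below 0.05 and DESeq2 called 2.46%, with no member in any of these. The chronic fold changes were -0.41 for Grin2d, -0.26 for Grin2b, -0.21 for Grin2a, -0.13 for Grin2c, -0.010 for Grin3a and 0.036 for Grin1. Over both paradigms Grin2a (-0.41, SE 0.13, FDR 0.193, DESeq2 FDR 0.0681) and Grin2b (-0.28, SE 0.11, FDR 0.308) had an unadjusted p below 0.05, against 11.6% of genes, where edgeR called no member and 1.46% of genes and DESeq2 called Grin2a and 4.4% of genes. Without chronic saline replicate 5 the edgeR FDR of Grin2a was 0.0438. Long genes (at least 15000 exon bases) had a median of -0.062 in acute VS and -0.050 over both paradigms. Of them, 68.9% and 67.3% were below 0, and the part of gene length in the Grin2a values was not tested. For the difference between paradigms edgeR called 0% of genes, 4.62% had an unadjusted p below 0.05 and DESeq2 called 0.0191%, with no member.

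Relative to Grin1, Grin2a was lower with ethanol in both striatal regions. In DS the ratio was 0.149 to 0.180 after acute saline against 0.139 to 0.157 after acute ethanol, and 0.207 to 0.217 after chronic saline against 0.126 to 0.168 after chronic ethanol. The difference was -0.36 on the log2 scale (adjusted p = 0.0667 over 30 tests, exact permutation within paradigm). In VS the ratio was 0.133 to 0.163 after acute saline against 0.0738 to 0.128 after acute ethanol, and 0.0996 to 0.118 after chronic saline against 0.0818 to 0.103 after chronic ethanol, a difference of -0.45 (adjusted p = 0.0750, exact permutation). Grin2b to Grin1 in VS was lower by 0.32 (log2 difference -0.32, adjusted p = 0.0900, exact permutation), with 0.221 to 0.276 in saline and 0.166 to 0.270 in ethanol libraries. Together with those of CTX and dHPC above, 5 of the 30 ratio comparisons with ethanol passed an adjusted p below 0.1. The DS call was lost without chronic saline replicate 3 or 6 or chronic ethanol replicate 5 or 6 of DS (adjusted p 0.10 to 0.125). The VS calls were lost without the same 4 DS libraries, through the shared adjustment. The Grin2a call in VS was also lost without 7 of the 12 VS libraries, which were the 3 of acute saline, acute ethanol 3, chronic saline 3 and 6 and chronic ethanol 1 (adjusted p up to 0.129). The Grin2b call in VS was lost without any of these 7 and without chronic saline 5 or chronic ethanol 4 (adjusted p up to 0.15).

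The striatal libraries differed in their content of pallial RNA along the same lines. The 9 pallial markers summed to 587 to 833 CPM in the saline libraries of DS and to 64.4 to 254 CPM in the ethanol libraries, without overlap. In VS they summed to 446 to 1062 CPM after acute saline against 62.7 to 192 CPM after acute ethanol, and to 107 to 959 CPM after chronic saline against 48.1 to 131 CPM after chronic ethanol. Slc17a7, the vesicular glutamate transporter of pallial neurons, was lower in DS after acute ethanol (log2 fold change -3.195, FDR 0.00295). None of the 9 markers was at 0 throughout a group. In DS the sum of the 7 genes of the GABAergic interneuron list was higher with ethanol without overlap as well (1065 to 1106 against 1194 to 1260 CPM in the acute and 913 to 917 against 1171 to 1327 CPM in the chronic groups). The list includes Gad1 and Gad2, so in DS this sum does not separate interneurons from other GABAergic neurons. Grin2a was also the member with the highest level in the pallial regions relative to the striatum, and the part of these markers in its striatal ratio was not tested.

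**Figure D5:**
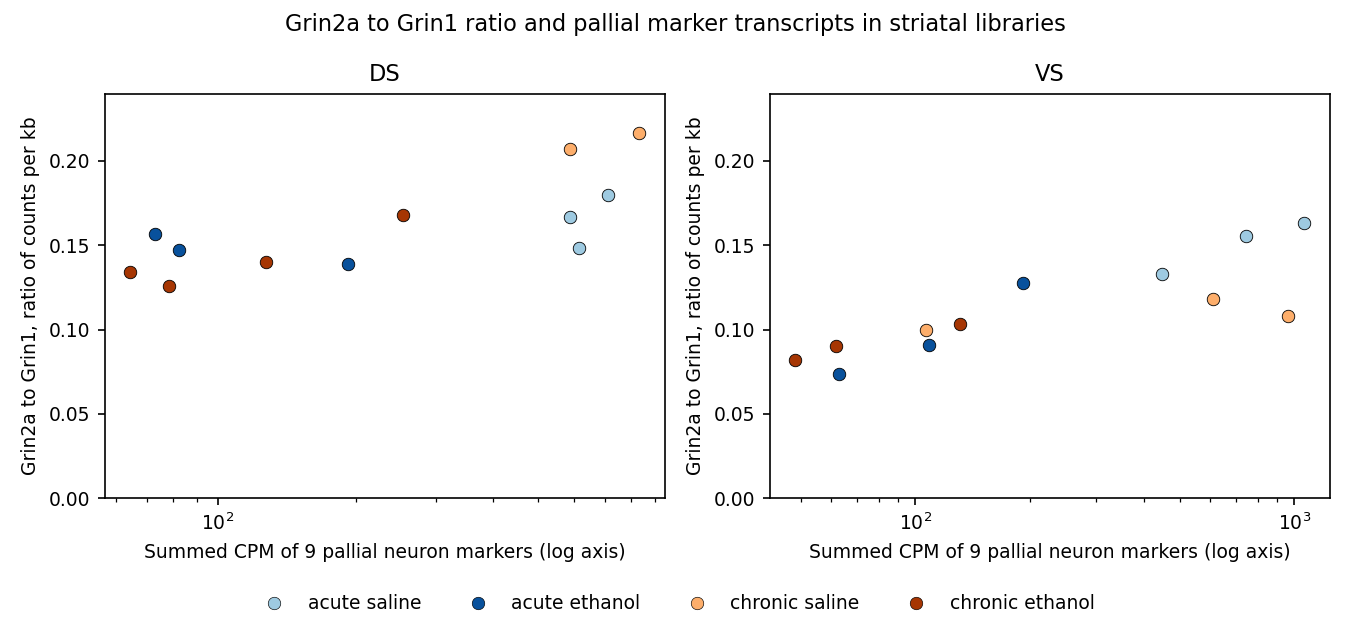
Grin2a to Grin1 ratio (counts per kilobase) against the summed CPM of 9 pallial excitatory neuron markers (log axis) in each DS and VS library, by treatment. The DS ethanol libraries sit at 64.4 to 254 CPM, all left of the saline libraries at 587 to 833 CPM.

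At the level of isoforms, 1 of 360 tests was called by edgeR, Grin2b-201 after acute ethanol in CTX (log2 fold change -0.24, SE 0.06, FDR 0.0996, DESeq2 FDR 0.0367), where 1.24% of all isoforms were called. The call was lost in 5 of the 6 fits that leave out a library. In acute CTX 12 of the 36 isoforms had an unadjusted p below 0.05, against 11.2% of isoforms, all 12 lower, and DESeq2 called 6 (3.55% of isoforms), which were 6 of the 7 isoforms of Grin2b. In chronic CTX edgeR called 0% of isoforms, 12 members had an unadjusted p below 0.05 (9.8% of isoforms) and DESeq2 called the same 6 Grin2b isoforms (0.307% of isoforms), with log2 fold changes from -0.67 to -0.77. In dHPC no isoform was called by either tool (edgeR 0.0015% and DESeq2 0.763% of isoforms after acute ethanol, 0% and 0.643% after chronic), with 3 at an unadjusted p below 0.05 after acute (7.69% of isoforms) and 6 after chronic ethanol (7.23%).

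In acute vHPC edgeR called 0% of isoforms, 20 members had an unadjusted p below 0.05 (11% of isoforms), 18 of them higher, and DESeq2 called 4 (3.21% of isoforms), which were Grin1-214 (0.36) and Grin2a-203, Grin2a-204 and Grin2a-205 (0.57 to 0.63). In chronic vHPC edgeR called no member and 0.0402% of isoforms, 28 members had an unadjusted p below 0.05 (8.81% of isoforms), all lower, and DESeq2 called 11 (0.738% of isoforms), of which 9 were Grin1 isoforms, 1 was Grin2b-202 (-0.51) and 1 was Grin2a-204 (-0.64). In DS no isoform was called (edgeR 3.59% and DESeq2 4.03% of isoforms after acute ethanol, 0% and 0.506% after chronic), with 3 at an unadjusted p below 0.05 in each paradigm (13.5% and 7.32% of isoforms). In VS edgeR called none of the 36 (0.233% of isoforms after acute and 0.00827% after chronic ethanol), 7 and 2 had an unadjusted p below 0.05 (6.98% and 9.01% of isoforms), and DESeq2 called Grin2a-206 after acute ethanol (-0.63, FDR 0.0466, with 0.82% of isoforms) and none after chronic (1.36%). Isoforms of one gene share reads and are not separate evidence. The share of a gene's reads held by an isoform did not pass with ethanol in any of 175 exact permutation tests (smallest adjusted p = 0.5), nor did the C1 or C2 reads in any of 10.

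Genes that act with the receptor were counted from lists of 70 genes for other ionotropic glutamate receptors, co-agonist supply, glutamate release and uptake, anchoring and trafficking, kinases and phosphatases, and calcium effectors, of which 67 to 70 were tested in each comparison. After acute ethanol in CTX, those called included the kainate receptor gene Grik3, which was higher (0.27, FDR 0.0969), and the calcium effector gene Rasgrf2, which was lower (-0.22, FDR 0.0520), and Cdk5r1 was called as well, where 1.99% of all genes were. After acute ethanol in DS, 9 of 68 were called, where 5.15% of all genes were. Among the 5 higher were Ptpn5 (0.35, FDR 0.0112), which encodes the striatum-enriched tyrosine phosphatase that acts on GluN2B, and the kinase anchor Akap5 (0.45, FDR 0.0151). The 4 lower ones included Slc17a7 and Camk2g (-0.48, FDR 0.00346). Over both paradigms, 5 of 68 were higher and 6 lower in DS, where 5.62% of all genes were called in either direction. Slc17a7 (-3.59) was among those lower in VS (1.46% of all genes called), and Dlg1 (-0.26), a scaffold gene, was the 1 of 70 called in dHPC (0.451% of all genes). None of the listed genes was called by edgeR in the other ethanol comparisons, among them all 5 chronic ones and all 5 differences between paradigms. The lists were not tested against other genes.

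The genes most like each member over the 61 libraries, by Pearson r of log2 CPM after removal of the batch means among 16153 genes, are a description of regions and libraries that share mice. For Grin2a they were Gm7328 (r = 0.987), Zbtb18 and Tcf4, and for Grin2b Gm7328 (r = 0.949), Tbl1xr1 and Ncor1. Grin2a and Grin2b themselves had r = 0.953, and Grin2d and Grin3a r = 0.784, whereas Grin2a and Grin3a had r = 0.0865. For Grin2d the nearest genes were Slc6a11 (r = 0.887), Tril and Tmem132c, for Grin3a Dner (r = 0.890), Podxl2 and Oprl1, and for Grin1 Acap3 (r = 0.887), Unc13a and Pi4ka. Grin2c had no gene closer than Map3k10 (r = 0.732), with St3gal2 and Git1 next. Grin3b, the remaining gene of the family, was at 0.515 to 0.856 RPKM in the batch without strand and at 0 to 0.218 RPKM in the stranded batch (0 to 24 reads a library), and was not called between regions within a batch.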

How the data were processed

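Per the submitters' processing notes and methods, the authors used Cutadapt 5.0 for trimming, STAR 2.7.10a for alignment (GRCm39) and featureCounts 2.0.6 for counting per gene and isoform, and deposited the raw counts as whole numbers. Low counts were mostly even (64.4% to 92.1% of the counts from 1 to 9 in each library), as where both mates of a pair are counted. All libraries were counted as reverse-stranded, although the kit of CTX and dHPC does not keep strand. Genes that reached 5 counts in 2 or more samples of any group were tested from these counts with edgeR 4.0.16 (TMM, quasi-likelihood F test, R 4.3.3), with the Benjamini-Hochberg FDR over all genes tested, and DESeq2 1.42.0 was an alternative. Both were tested on simulated data. Ratios and isoform shares were compared with exact permutation tests computed with NumPy 2.4.6. Cassette reads, long genes and pallial markers beside the ratios were added after seeing the data. Replicates were separate mice. Libraries of different regions were taken as 1 mouse where the group and replicate number in their titles matched. Their deviations from group means correlated at -0.151 to 0.271 (median 0.0872, 39 pairs), with a median of -0.00941 for the 9 pairs of vHPC and VS. All 6 members are named in each comparison of regions and of ethanol with saline within a paradigm. Also named are Grin3b, the called isoforms and those of highest and lowest share, and the 3 genes most like each member. From the pathway lists at most 2 called genes per direction are named in a comparison. The members and lists were chosen with earlier results of these data known. Some genes of the lists are not reported here.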

Additional observations from a re-analysis of the deposited data

Results flagged for a closer look

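The Grin1 fold changes with ethanol in vHPC had opposite signs in the 2 paradigms, a difference called by DESeq2 and not by edgeR. The chronic minus acute difference of the log2 fold changes was -0.69 (SE 0.14, unadjusted p = 0.000209 from edgeR's interaction term, FDR 0.289). All 3 acute ethanol libraries were above all 3 acute saline libraries, and all 3 chronic ethanol libraries were below all 3 chronic saline libraries. Groups did not overlap, in one direction or the other, for 17.7% of all genes in the acute and 14.8% in the chronic comparison. The chronic saline libraries were also all above the acute saline ones. The call depends on the tool, since DESeq2 gave an FDR of 0.00471. In that DESeq2 comparison 4.62% of the 9023 genes with a DESeq2 FDR passed, where edgeR tested 20618 genes. Choroid plexus and pallial marker sums differed between the chronic groups as well, and those of dentate granule neurons, interneurons and microglia between the acute groups, and their part was not tested. In 24 Dixon tests for a single outlying library, made on the members and ratios of the 2 groups of 4 libraries, none passed.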

How the results depend on the processing

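The calls between regions (18 of 24) and between regions in the ratios (17 of 24) were the same without each library in turn, and the ratio count with ethanol ran from 2 to 8 (5 with all libraries). With saline mice alone, 0 of the 24 regional ratios passed (4 or 5 mice a pair). Calls of members with ethanol were few under edgeR and more under other settings. For acute ethanol there was 1 call, against 3 with DESeq2, 0 with a joint fit of a region's 4 groups, 3 without the low-count filter and 0 to 3 without each library. For chronic ethanol there were 0, against 2, 1, 5 and 0 to 1 in the same order. For the difference between paradigms there were 0, against 2 with DESeq2, 4 without the filter and 0 to 1 without each library. Over both paradigms there were 0, against 3 with DESeq2, 1 with at least 10 counts in every sample, 6 without the filter and 0 to 1 without each library. For isoforms after acute ethanol there was 1 call, against 11 with DESeq2, 0 with DESeq2's size factors, 0 with at least 10 counts, 14 without the filter and 0 to 7 without each library. For isoforms after chronic ethanol there were 0, against 17 with DESeq2, 26 without the filter and 0 to 16 without each library. Isoform shares gave 23 to 36 calls between regions without each library (30 with all) and 0 with ethanol, and cassette reads gave 4 to 5 between regions and 0 with ethanol. The causes were not tested.

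Values that changed sign were uncalled before and after. They were Grin2b in dHPC against CTX (-0.045 with saline alone, 0.11 in the main analysis), Grin2d in VS against vHPC (-0.18 with the replicate block, -0.13 with saline alone, and -0.13 to 0.11 without each library), Grin1 in VS against DS (0.0053 with the replicate block, 0.0049 with saline alone, 0.0026 with the incomplete library, and -0.061 to 0.017 without each library), Grin2c in VS against DS (-0.0085 with the replicate block) and the difference between paradigms of Grin2a in dHPC (-0.048 with the replicate block).

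Between saline and ethanol a replicate number marks different mice. Deviations of the 14 same-numbered pairs correlated at -0.289 to 0.499 (median 0.0310, 5 above 0.1), so the number was not taken as a pairing. With the replicate block, edgeR called 6 isoforms of the members in acute CTX and dHPC (1 without it) and 12 in chronic CTX (0 without it), and the counts of member genes were as without it (1 after acute and 0 after chronic ethanol). In the other comparisons within a paradigm too few numbers are shared to leave residual degrees of freedom. In the regional comparisons, where the block is the mouse, it changed no call. Counts of 55 to 445 for Grin2d in the shallower batch limit its precision.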
